A study of Mus musculus with 40 samples.

Results

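The promoters of 10 germline genes, Dazl, Ddx4, Sycp1, Sycp3, Mael, Tdrd1, Stra8, Slc25a31, Hormad1 and Asz1, were examined in mouse liver by reduced representation bisulfite sequencing (RRBS), which reads the methylation of cytosines next to MspI cut sites. A promoter was the window from 1000 bp before to 1000 bp after an annotated transcription start on mm9. The deposited table listed 46 CpGs in these windows, of 400298 in all, and they lay in 8 of the 10 genes. Ddx4 and Stra8 had no listed CpG. The livers came from 40 male mice of 9 weeks, of strain C57BL/6 by the labels and C57BL/6J by the methods of the study, whose dams and who themselves after weaning were fed a low fat (LF) or high fat (HF) diet. There were 10 mice in each of the 4 groups, named here by maternal and then post-weaning diet as LF_LF, LF_HF, HF_LF and HF_HF. Liver tissue was not sorted by cell type. The study profiled liver RNA of the same 40 animals by microarray, but RNA was not analysed here. Whether these genes were silent in these livers was therefore not examined.

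Germline genes are used in the making of sperm and eggs and are kept off in the cells of the body. For a group of them, methylation of a CpG-dense promoter is laid down when the embryo implants and is inherited by somatic cells, while the germ line loses it. Among the 10 genes, Dazl codes for an RNA-binding protein that controls translation in germ cells, and Ddx4 for an RNA helicase of the germ granules. Sycp1 and Sycp3 code for parts of the synaptonemal complex that joins homologous chromosomes in meiosis, Hormad1 for a protein of the meiotic chromosome axis, and Stra8 for a factor needed to enter meiosis. Mael, Tdrd1 and Asz1 act in the piRNA pathway, which silences transposons in the male germ line. Slc25a31 codes for the ADP/ATP carrier of testis mitochondria.

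The listed CpGs lay within 15 sequenced MspI ends, and those of the same end were read on the same reads. The following stretches of the NCBIM37 (mm9) genome, given 5′ to 3′ in the direction of the gene, show where the values of the 8 genes come from. Capitals mark the CpGs that the table lists. The first 3 lines are Dazl stretches on which methylation differed most, and the others give 1 stretch for each gene with values close to its start, or its single sequenced end.

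Dazl upstream, chr17:50433523-50433573, minus strand: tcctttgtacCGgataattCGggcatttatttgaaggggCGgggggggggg
Dazl intron, chr17:50432578-50432599, minus strand: ttcatatttcCGgttctgggtt
Dazl after its downstream start, chr17:50432172-50432201, minus strand: ggaaaggaccCGgagggCGtggttatCGgg
Slc25a31 start, chr3:40512765-40512806, plus strand: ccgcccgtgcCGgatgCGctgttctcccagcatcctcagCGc
Asz1 start, chr6:18059018-18059066, minus strand: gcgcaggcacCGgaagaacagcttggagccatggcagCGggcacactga
Mael coding exon, chr1:168168717-168168786, minus strand: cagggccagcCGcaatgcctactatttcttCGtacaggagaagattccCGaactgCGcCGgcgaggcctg
Tdrd1 intron, chr19:56900984-56901053, plus strand: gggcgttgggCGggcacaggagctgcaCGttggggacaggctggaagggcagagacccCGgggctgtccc
Sycp3 intron, chr10:87922722-87922791, plus strand: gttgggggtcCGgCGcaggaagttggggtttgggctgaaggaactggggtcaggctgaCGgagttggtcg
Hormad1 upstream, chr3:95363139-95363189, plus strand: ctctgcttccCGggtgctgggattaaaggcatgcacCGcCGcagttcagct
Sycp1 upstream, chr3:102740612-102740633, minus strand: ctcccccatcCGgccctccccc

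Pieces of 20 bases of these stretches were searched in the whole genome. In 13 of the 15 stretches, every piece was found once. A piece of the Slc25a31 start stretch was found 3 times. The Hormad1 stretch stood apart, since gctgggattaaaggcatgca, which lies between its first and second CpG, was found 5023 times on both strands of NCBIM37. Only 2 of the 7 pieces of that stretch were found once, although its 50-base bisulfite-converted read matched the genome once. The Hormad1 value was therefore read within a sequence that the genome holds in many copies, 421 to 450 bp upstream of the start.

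Most of the germline promoters with a listed CpG were highly methylated in liver at those CpGs. Methylation, as the mean over the CpGs of a window, was 80% or more in 5 of the 8 genes with a listed CpG, from 10% to 80% in 3 and below 10% in 0. Dazl counts among the 3 through a mean of 54.0% over methylated and unmethylated stretches. It was 90.9% without the CpGs after its downstream start and 1.74% over the CpGs covered in all 40 mice. Over all 15313 annotated genes with a listed CpG, the median promoter was methylated at 2.49%, 72.5% of promoters were below 10% and 9.02% were at 80% or more. Among 8365 CpG-rich promoters (an observed to expected CpG ratio of at least 0.6 and a GC content of at least 55% in 300 bp), 1.31% were at 80% or more. The 8 germline promoters lay between the 86.4th and 96.4th percentile of all promoters. Set against the CpG-rich ones, to which Sycp3 itself did not belong, they lay between the 97.4th and 99.3rd percentile. Only in Slc25a31 and Asz1 did listed CpGs lie inside the 300 bp by which a promoter was called CpG-rich.

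**Figure D1:**
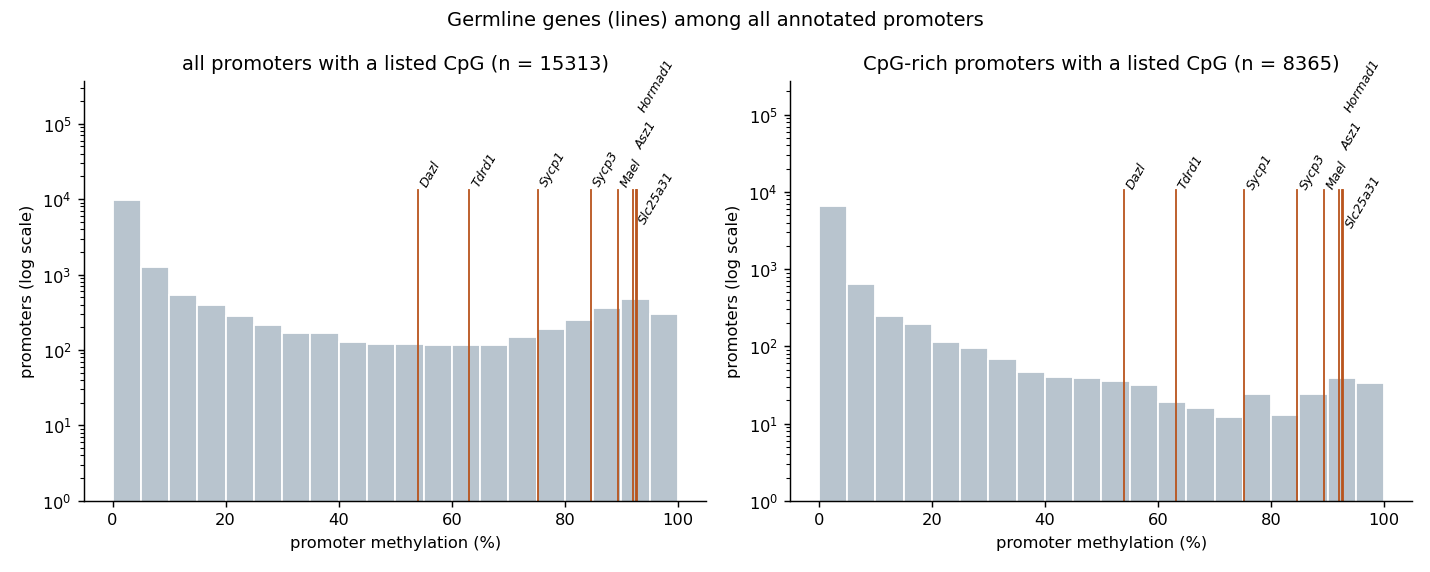
Number of promoters (log axis) by promoter methylation in percent, for all annotated genes with a listed CpG (left, 15313 genes) and for the CpG-rich ones (right, 8365 genes). Each line marks 1 of the 8 germline genes, which lie from 54.0% (Dazl) to 92.7% (Slc25a31), to the right of the tall bars below 10%.

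Most of the germline promoters were also CpG-dense, but Stra8 (GC content 50.3%) and Sycp3 (54.7%) did not meet the CpG-rich cut given above. In the 300 bp around the annotated start, the observed to expected CpG ratio had a median of 0.773 over the 10 genes against 0.353 over all 37303 promoters, and ran from 0.369 (Stra8) to 0.978 (Ddx4). The hexamer TCCCGC, searched on both strands as the core recognised by E2F factors, was in 6 of the 10 promoters (Ddx4, Sycp1, Sycp3, Mael, Slc25a31 and Hormad1), in 17.9% of all promoters and in 47.8% of CpG-rich ones. The palindrome CACGTG, an E-box, was in 7 of the 10 (those 6 and Tdrd1), in 6.21% of all promoters and in 11.4% of CpG-rich ones. These are matches of letters and no binding was measured. The last letter of TCCCGC can also be the first of CACGTG, and their positions were not compared. Dazl, Asz1 and Stra8 held neither in this window.

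Slc25a31 (chr3, plus strand) was the most densely measured of the highly methylated genes, with 16 listed CpGs from 280 bp upstream to 473 bp downstream of its start, of which 11 had at least 10 reads in at least 36 mice and entered the tests. Its promoter methylation over those 11 CpGs was 92.9% ± 2.81 (SD, n = 40), from 87.3% in the lowest mouse to 98.6% in the highest. The CpG nearest to the start, 2 bp upstream of it, was methylated at 96.1% ± 4.93 (SD, n = 37). The highest CpG, 280 bp upstream, was at 98.3% ± 2.91 (n = 39) and the lowest, in the intron at +473, at 78.3% ± 7.81 (n = 40). That intron CpG was lower than the CpG at +427, which lies on the same reads, in 38 of 40 mice and equal in 2, by 17.9 ± 7.996 percentage points. The CpG with the largest spread within diet groups, at +142 in the coding exon, had 81.3% ± 12.1 (n = 35) and was 16.2 ± 13.7 percentage points below the CpG at +185 of the same reads. High methylation therefore ran from upstream through the start into the gene, with single CpGs that were less methylated.

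Asz1 (chr6, minus strand) was read directly at its start. The CpG 1 bp after the start was methylated at 93.9% ± 6.51 (SD, n = 40) and that at +28, in the coding exon, at 90.02% ± 6.88 (n = 40). The mean of both was 92.0% ± 5.53 and ran from 79.2% to 100% in single mice.

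Mael (chr1, minus strand) was read in its coding exon, from 100 to 148 bp after the start. Its promoter methylation was 89.4% ± 3.999 (SD, n = 36). The 5 CpGs differed along the read, from 83.7% ± 8.49 at +100, which had the largest spread of the gene, to 93.3% ± 5.31 at +145. The CpG at +100 was lower than that at +145 in 30 of 36 mice, higher in 3 and equal in 3. It was read at base 49 of the 50-base read and that at +145 at base 4.

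Sycp3, Hormad1, Sycp1 and Tdrd1 had CpGs with at least 10 reads in only 33 to 35 mice, so their values use all listed CpGs and rest on fewer animals. Sycp3 (chr10, plus strand) was read in its intron, 418 to 466 bp after the start. Its mean was 84.6% ± 7.91 (SD, n = 33), with 82.3% ± 11.2 at the CpG nearest to the start, 81.0% ± 11.6 at +421, the lowest and most variable, and 90.6% ± 7.65 at +466, the highest. Hormad1 (chr3, plus strand) had 92.5% ± 4.74 (n = 33), with 3 CpGs between 90.9% at -424 and 93.8% at -421, in the sequence described above that is repeated in the genome. Sycp1 (chr3, minus strand) rested on a single CpG 599 bp upstream of the start, which was methylated at 75.3% ± 11.8 (n = 35) and ranged from 43.8% to 92.9%.

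Tdrd1 (chr19, plus strand) was intermediate. Its 3 CpGs lie within 48 bp of an intron, 296 to 344 bp after the upstream annotated start, and their mean was 63.1% ± 12.8 (SD, n = 34), from 30.3% to 87.2% in single mice. The middle CpG, at +313, was methylated at 41.1% ± 14.4, while the CpGs on either side of it were at 74.03% ± 17.8 and 74.3% ± 15.2. The middle CpG was below both others in 32 of 34 mice, although the same reads cover all 3. The CpG at +296 is the nearest to a start and had the largest spread of the gene.

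**Figure D2:**
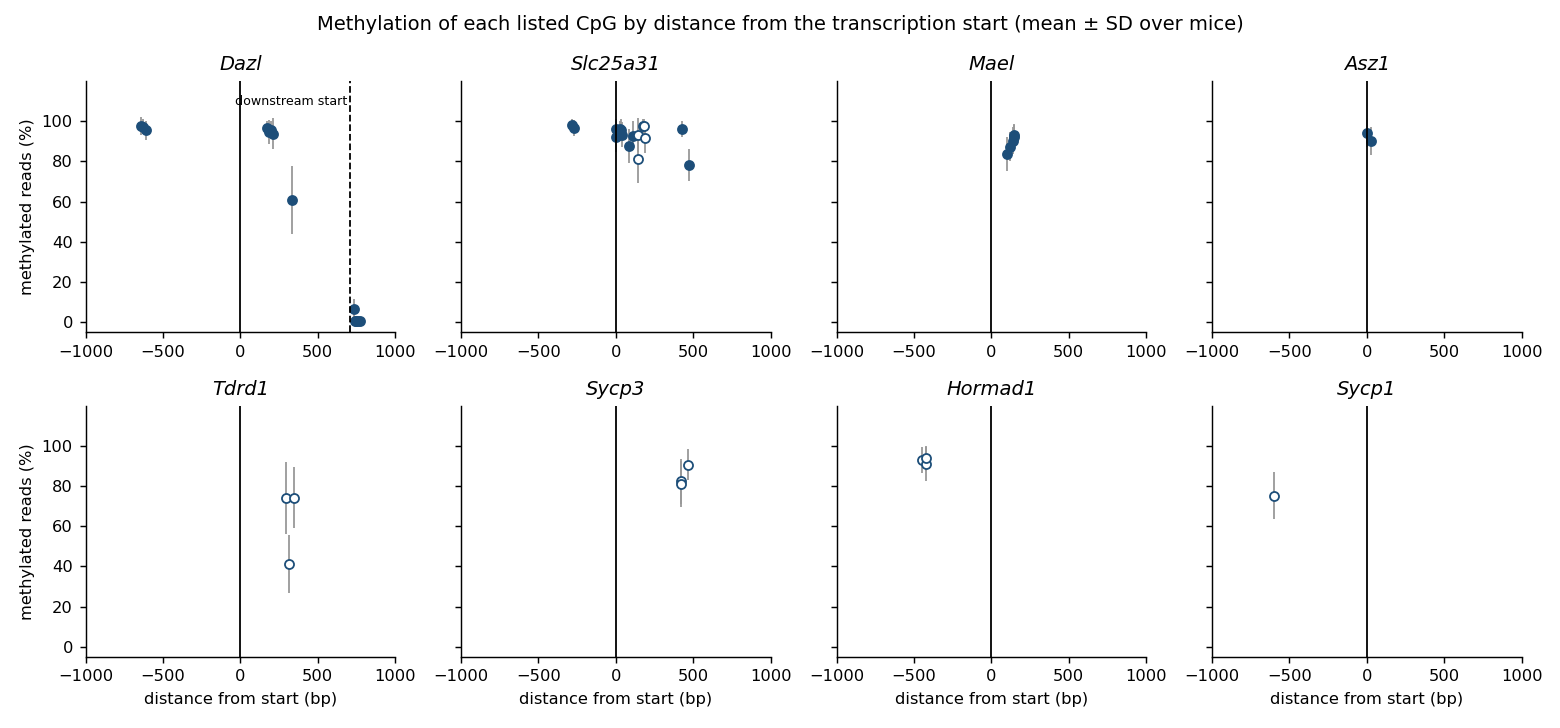
Percent of reads methylated at each listed CpG (mean ± SD over mice) by distance in bp from the most upstream coding transcription start (vertical line), for the 8 genes with a listed CpG. Filled points had at least 10 reads in at least 36 mice and open points in 33 to 35. In Dazl the values fall from 95.2% over the CpGs at +173 to +213 to 1.74% after the downstream start (dashed line), while in Slc25a31 they stay between 78.3% and 98.3%.

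Dazl (chr17, minus strand) held both extremes in its window. The annotation gives it an upstream start at 50432924 and a second start at 50432217, further along the gene. The only RefSeq start at hand for Dazl, 50432945, lies near the upstream one, so the second start rests here on GENCODE vM1. The 3 CpGs upstream of both starts, from -639 to -610, were methylated at 96.8% ± 2.61 (SD, n = 36), from 90.2% in the lowest mouse to 100% in the highest. The 4 CpGs at +173 to +213, in the untranslated first exon and the intron, were at 95.2% ± 3.31 (n = 37), from 84.1% to 100%. The single CpG at +336, in the intron, was at 60.7% ± 16.8 (n = 36), from 23.1% to 94.4%, and had the largest spread within groups of all 46 CpGs. The 5 CpGs just after the second start, from +733 to +773, were at 1.74% ± 1.19 (n = 40), from 0% to 5.05%. They lie in an untranslated exon of the shorter transcript. No mouse overlapped between the methylated stretches and the CpGs after the second start, and the fall took place within 520 bp.

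Of the 5 Dazl CpGs after the second start, the first was methylated at 6.44% ± 4.97 (SD, n = 40) and the others at 0.453% to 0.659%. The first is the CpG nearest to a start, 26 bp after it, and sits in the MspI site at base 1 of the read, while the lowest, at +763, sits at base 31. The first was higher than the lowest in 30 of 40 mice, on the same reads. Single values rested on 10 to 64 reads at these CpGs, so 1 methylated read moved a value by 1.56 to 10 percentage points.

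The mean over all 13 Dazl CpGs was 54.0% ± 8.27 (SD, n = 40), a value that few of its CpGs had. It also depended on which CpGs a mouse covered. All 5 unmethylated CpGs had a value in each of the 40 mice, but 9 mice lacked some of the other 8. The lowest mouse, LF_LF replicate 9, with 14.0%, had 6 CpGs, of which 1 was outside the unmethylated stretch. Over the 31 mice with a value at every CpG, the mean was 56.8% ± 1.43, from 54.6% to 60.2%.

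The spread between mice was set beside the spread that the number of reads gives by itself. Single values at the germline CpGs rested on 10 to 72 reads, in libraries with 2969907 to 23345592 reads at CpGs. Binomial sampling alone gives a range of SDs, from CpGs read independently to CpGs of an end that all share their state on a read. The upper value is a bound, since CpGs of the same reads differed in methylation in many mice. In each of the 8 genes the SD between mice was above the value for independent CpGs, and in 4 it was below the upper bound. The SD within diet groups and this range were 2.78 against 1.90 to 3.15 percentage points in Slc25a31, 3.90 against 2.89 to 6.40 in Mael, 4.76 against 3.46 to 5.98 in Hormad1 and 8.11 against 5.13 to 8.82 in Sycp3. It was just above the range in Asz1 (5.68 against 3.81 to 5.35) and Tdrd1 (12.3 against 6.66 to 11.5), and in Sycp1 it was 11.98 against 9.56. In Dazl it was 8.29 against 1.46 to 2.30, where the missing CpGs described above move the mean. Over all promoters, the median SD within groups was 4.90 for those methylated at 80% or more and 7.45 for those between 10% and 80%. These sampling values cover counting error only, since reads are not known to be separate molecules.

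**Figure D3:**
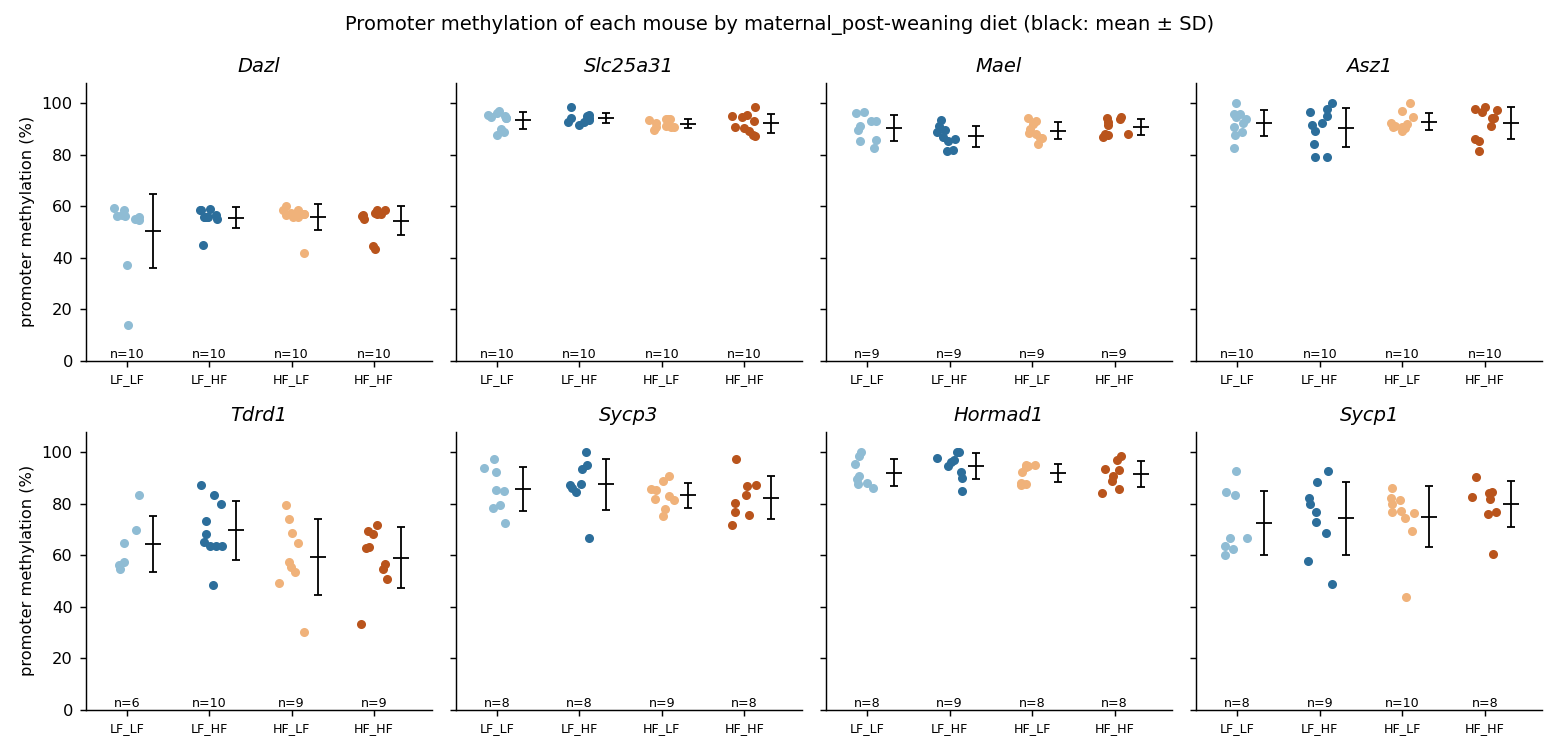
Promoter methylation in percent of each mouse (points) in the 4 groups named by maternal and post-weaning diet, with mean ± SD in black and the number of mice with a value. The groups overlap in each of the 8 genes, and the low Dazl points, down to 14.0%, are mice that lack some of the methylated CpGs.

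Whether the diet of the dam or of the animal moved these promoters was tested promoter by promoter between pairs of groups (two-sided, equal variances), with adjustment over all promoters tested (Benjamini-Hochberg false discovery rate, FDR). None of the 4 tested germline promoters, nor of the 8 with all listed CpGs, reached an FDR below 5% in any comparison. Of all promoters, 0.0146% did so in any of the 4 comparisons, and 0% with all listed CpGs. The smallest FDR of a germline promoter was 0.932, for all listed CpGs between post-weaning diets where the dams had been fed HF. The groups overlapped in every gene and comparison. At an unadjusted p below 0.05, 1 of 4 germline promoters passed for maternal diet in animals fed HF, where 4.63% of all promoters did, and 0 passed in the other comparisons, where 4.98% (maternal diet, fed LF), 4.93% (post-weaning diet, LF fed dams) and 5.18% (post-weaning diet, HF fed dams) did. With all listed CpGs it was 1 of 8, 0, 0 and 0 germline promoters, against 4.31%, 5.38%, 4.65% and 4.9% of all promoters. For the interaction of both diets it was 0 of 4 and 0 of 8, against 4.79% and 4.78%.

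The promoter with the smallest p was Mael. Among animals fed HF after weaning, its methylation ran from 87.0% to 94.7% with a median of 91.5% in those born from HF fed dams, and from 81.3% to 93.3% with a median of 86.7% in those born from LF fed dams. The means were 90.8% ± 3.15 (SD, n = 9) and 87.1% ± 3.98 (n = 9). The difference of 3.69 percentage points (95% confidence interval 0.105 to 7.28) had an unadjusted p of 0.0444, an FDR of 0.968 and a two-sided exact permutation p of 0.0456. By CpG, the HF_HF and LF_HF means were 94.5% and 85.7% at +138 and 87.6% and 77.0% at +100. They were 91.1% and 91.9% at +148, 92.8% and 92.1% at +145, and 88.2% and 89.0% at +120. An exact Wilcoxon test of the promoter values, which gives no difference of its own, had an unadjusted p of 0.0503. In a linear model with the mean methylation of the mouse as covariate, the promoter difference was 3.69 with p = 0.0722. Among animals fed LF, the difference between maternal diets had the other sign, -1.10 percentage points (-5.28 to 3.09). The difference between both differences, 4.79 percentage points, had p = 0.0747 and an FDR of 0.960 in the linear model over all mice, whose exact permutation was not run.

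For the other genes the intervals say how large a difference the data allow. In Slc25a31 the 4 differences lay between -1.95 and 0.814 percentage points, and their 95% intervals between -4.73 and 3.34. In Asz1 the differences lay between -1.76 and 1.77, and their intervals between -7.73 and 8.19. In Dazl the largest difference was 5.49 (interval -4.53 to 15.5), between HF_LF and LF_LF, where it was 0.716 in mice with a value at every CpG. It was 6.21 (unadjusted p = 0.0474 in the same test over all mice, with no FDR) without the CpGs after the downstream start. Mice still covered different CpGs there. LF_LF replicates 9 and 1 entered with 1 and 4 of 8 CpGs, at 64.3% and 80.3%. HF_LF replicates 9 and 10 entered with 7 and 4, at 99.0% and 94.2%. By stretch, HF_LF and LF_LF were at 97.4% and 96.7% upstream and at 96.0% and 94.2% at +173 to +213. At +336 they were at 65.1% and 54.4%. In Hormad1 the intervals lay between -8.45 and 7.99 and in Sycp3 between -15.0 and 11.97. They were widest in Sycp1 and Tdrd1. In Tdrd1 the mean was 59.0% ± 11.9 (SD, n = 9) in HF_HF and 69.7% ± 11.5 (n = 10) in LF_HF, a difference of -10.7 (interval -22.1 to 0.6253) with an exact permutation p of 0.0617 and an FDR of 0.979.

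**Figure D4:**
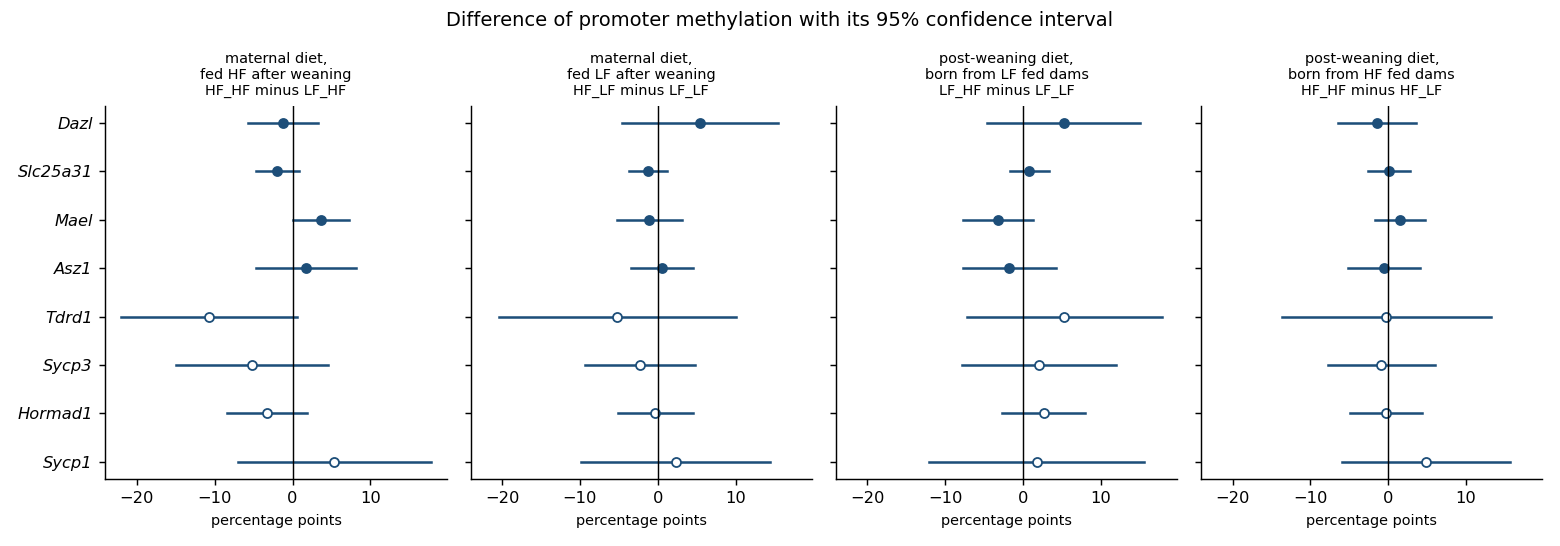
Difference of promoter methylation in percentage points with its 95% confidence interval, for 8 genes and 4 comparisons. Filled points use CpGs with at least 10 reads in at least 36 mice and open points all listed CpGs. Of the 32 intervals, only that of Mael for maternal diet in animals fed HF leaves out 0, by 0.105 percentage points.

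Single CpGs gave the same picture. None of the 31 tested germline CpGs, nor of the 46 listed, had an FDR below 5% in any comparison, and the smallest FDR was 0.808. Of all CpGs, 0.00196% of those tested and 0.0013% of those listed had one in any comparison. At an unadjusted p below 0.05, 3 of 31 germline CpGs passed for maternal diet in animals fed HF (3.72% of all CpGs), 1 for maternal diet in animals fed LF (3.99%), 1 for post-weaning diet in those born from LF fed dams (4.03%) and 2 for post-weaning diet in those born from HF fed dams (4.06%). Of the 46 listed CpGs, 4, 2, 2 and 2 did so, against 3.63%, 3.82%, 3.88% and 3.97% of all listed CpGs. CpGs of the same read and comparisons that share a group are not independent.

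The 7 results came from 4 CpGs, of Mael at +100 and +138 and of Dazl at -610 and -630, given here because they or their comparisons had the smallest p. The Mael CpG at +138 was at 94.5% ± 5.29 (SD, n = 9) in HF_HF, 92.7% ± 7.03 (n = 9) in LF_LF, 88.4% ± 4.89 (n = 9) in HF_LF and 85.7% ± 6.65 (n = 9) in LF_HF. It had the smallest p for maternal diet in animals fed HF, with a difference of 8.78 percentage points (exact permutation p = 0.00905, FDR 0.822). It also had the smallest p for post-weaning diet in those born from LF fed dams, with a difference of -6.98 (exact permutation p = 0.0478, FDR 0.808). The Dazl CpG at -630 was at 99.6% ± 1.22 (n = 10) in HF_LF, 97.1% ± 4.15 (n = 9) in LF_HF, 96.4% ± 3.73 (n = 9) in LF_LF and 95.7% ± 3.77 (n = 8) in HF_HF. It had the smallest p for maternal diet in animals fed LF (difference 3.24, exact permutation p = 0.0217, FDR 0.818) and for post-weaning diet in those born from HF fed dams (difference -3.90, exact permutation p = 0.0131, FDR 0.820).

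Other genes known from the germ line did not form a uniform group in liver. Of 71 such genes in 4 lists, 36 had a listed CpG, and their promoter methylation had a median of 66.0%. It was at 80% or more in 16, from 10% to 80% in 9 and below 10% in 11. The median was 96.6% over 7 sperm and testis genes, 76.5% over 11 piRNA pathway genes, 70.3% over 11 germ cell regulators and 13.0% over 7 genes of meiotic chromosomes and recombination. Among those with at least 3 tested CpGs, the highest were Tuba3b (98.4% ± 1.44, SD, n = 39) and Tuba3a (97.8% ± 1.90, n = 36), close copies that code for testis tubulins, and Tex14 (96.7% ± 3.98, n = 39), needed for the bridges between germ cells. The lowest were Dazap1 (1.64% ± 1.46, n = 40), an RNA-binding protein that other tissues also use, Hspa2 (2.09% ± 1.18, n = 40), a heat shock protein of spermatocytes, and Mei4 (2.12% ± 0.926, n = 40), needed for meiotic DNA breaks. Of 30 of these promoters with a test, 0 had an FDR below 5% in any comparison, and 1, 2, 0 and 2 had an unadjusted p below 0.05 in the 4 comparisons in the order above, where 4.63%, 4.98%, 4.93% and 5.18% of all promoters did, so these counts were close to the background.

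**Figure D5:**
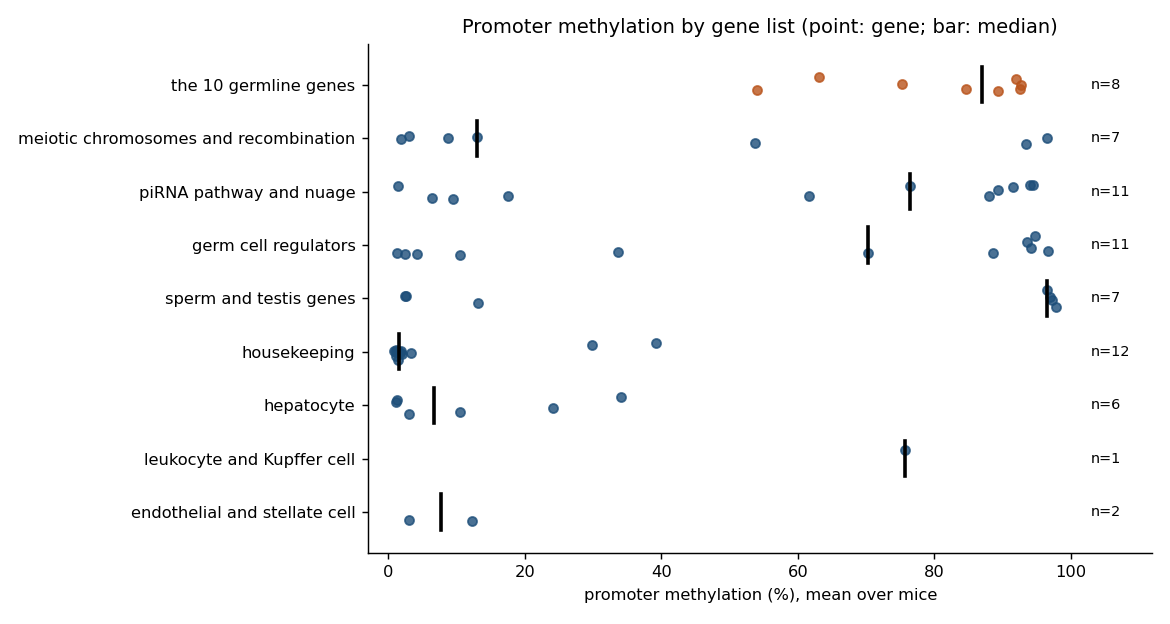
Promoter methylation in percent (mean over mice) of each gene with a listed CpG, by gene list, with the median as a bar and the number of genes at the right. The sperm and testis genes split into genes above 96% and genes below 14%, and 10 of the 12 housekeeping genes lie below 10%.

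The tissue was checked by the promoters of marker genes. Of 12 housekeeping genes with a listed CpG, 10 were below 10% and the median was 1.56%. Of 6 hepatocyte genes reported here, Apoh (1.08%), Cebpa (1.23%) and Foxa2 (2.98%) were below 10%, Foxa3 was at 10.5%, Hnf4a at 24.1% and Apoa2 at 34.1%. The leukocyte gene Laptm5 was at 75.7%. The stellate cell genes Lrat and Des were at 2.98% and 12.3%. The share of other cells in the tissue was not measured, and its part in the intermediate values of Tdrd1, Sycp1 and the Dazl intron CpG was not tested.

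Coverage sets the reach of these results. The windows of Ddx4 and Stra8 hold 91 and 89 CpGs and 10 and 16 MspI sites (CCGG) in NCBIM37, and none of their CpGs is listed. In the other 8 genes, the listed CpGs are a part of those in the windows, from 16 of 73 in Slc25a31 to 13 of 146 in Dazl, 2 of 51 in the Asz1 window that holds them and 1 of 101 in that of Sycp1.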

How the data were processed

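Reads of 50 bases from MspI-cut, size-selected and bisulfite-converted liver DNA were aligned by the authors to mm9 with Bismark, whose version is not given in the sources used here. The authors deposited, for each cytosine and mouse, the count of methylated reads, the count of all reads (missing under 10 reads), and the fraction of methylated reads, without normalization. The counts were used here. There were 0 columns of unmapped mice.

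CpGs with at least 10 reads in at least 36 of 40 mice entered the tests (262317 of 400298), and values are percent methylated reads. Transcription starts came from GENCODE vM1. All 399856 cytosines on chromosomes lie at a CpG of NCBIM37. Promoter values are the mean over the CpGs a mouse covers. The 4 genes without a tested CpG but with listed ones use all listed CpGs, tested over all genes in the same way. Each comparison used Student's t-test with Benjamini-Hochberg adjustment over all promoters or CpGs, single values a permutation test (100000 resamples, exact where a group had under 10 values), and the interaction a linear model over all mice (numpy 2.4.6, scipy 1.17.1, pandas 2.3.3). At weaning, the study divided the males of each cage between both diets, so mice of a maternal diet can share a dam within a group and across both post-weaning diets. The labels do not say which do, and mice were treated as independent. The tests take the spread between these mice as their error, so p-values may be too small for maternal diet. Those for post-weaning diet leave out the pairing by dam and may err in the other direction.

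CpGs named are, for each gene, the nearest to a start, the lowest, the highest and the one with the largest SD within groups, and for each comparison the one with the smallest p. Other germline genes named are the 3 highest and 3 lowest with at least 3 tested CpGs. The Dazl stretches, pairs of CpGs on a read and repeat copies were chosen after seeing the data. The members and lists were chosen with earlier results of these data known. Some marker genes are not reported here. Alternatives changed the CpG filter, window, weighting, test and covariate.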

Additional observations from a re-analysis of the deposited data

Results flagged for a closer look

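In each of 32 sets of 1 gene and 1 diet group, the highest and lowest mouse were compared with the others by the gap to the nearest mouse over the range of the set. The rule is meant to flag about 1 set in 20 by chance, and 6 mice were flagged. That rate need not hold for percents that rest on unequal reads and CpGs, and no rate was computed for these data. For Dazl, LF_LF replicate 9 was at 14.0% with the nearest mouse at 37.3%, LF_HF replicate 10 at 45% with the nearest at 55.0%, and HF_LF replicate 10 at 41.9% with the nearest at 55.7%. These 3 mice had a value at 6, 10 and 9 of the 13 Dazl CpGs, with all 5 unmethylated CpGs among them, and their mean over the CpGs outside the unmethylated stretch was 64.3%, 88.3% and 94.2%. For Sycp1, which rests on a single CpG, HF_LF replicate 10 was at 43.75% with the nearest at 69.4%. For Sycp3, LF_HF replicate 8 was at 66.7% with the nearest at 84.5%. For Slc25a31, LF_HF replicate 5 was the highest of its group at 98.6% with the nearest at 95.3%. The reads at CpGs of these mice summed to 3488092 to 8293425.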

How the results depend on the processing

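None of the 4 tested germline promoters and 31 tested CpGs reached an FDR below 5% under the alternatives for which an FDR was computed, nor did the 8 promoters and 46 CpGs with all listed CpGs, and the differences of Sycp1, Sycp3, Tdrd1 and Hormad1 were computed in no other way. Of the alternatives to the levels, spreads and counts, 116 gave the same value, 19 left it within its limit and 16 moved it. Of those to the differences of the 4 tested genes, 69 repeated the value because they changed only the test or used the same CpGs, and of the other 79, 68 kept the sign and 11 reversed it. The mean of Dazl went from 54.0% to 1.74% with only CpGs covered in all 40 mice (its unmethylated stretch alone, with an SD within groups of 1.10 against 8.29), to 42.3% in a window of 500 bp and to 90.9% without the CpGs after the downstream start (an alternative added after seeing the data). With CpGs covered in all 40 mice, Slc25a31 went to 87.2% with an SD of 4.81. The count of germline promoters at p below 0.05 for maternal diet in animals fed HF went from 1 to 0 with those CpGs (Mael is not among them), with the exact Wilcoxon test (Mael p = 0.0503) and with mean methylation of the mouse as covariate (Mael difference 3.69, p = 0.0722). The count of CpGs for maternal diet in animals fed LF was 1, and 2 with all listed CpGs, 2 by Welch's test, 5 in a quasi-binomial model and 0 with the covariate. For post-weaning diet in those born from LF fed dams it was 1, and 2 with all listed CpGs and 2 with the quasi-binomial model, and in those born from HF fed dams 2, and 1 with the exact Wilcoxon test. The quasi-binomial model gave an unadjusted p below 0.05 at 10.3% to 10.9% of all CpGs in the 4 comparisons (10.3% where it called 5 of 31), Welch's test at 3.35% to 3.71%, the exact Wilcoxon test at 3.46% to 3.72% and the covariate model at 3.67% to 4.84%. The differences of Dazl that reversed were, for maternal diet in animals fed HF, 0.155 with CpGs centred on their mean and 1.03 without the CpGs after the downstream start, for maternal diet in animals fed LF -1.13 with CpGs covered in all 40 mice, for post-weaning diet in those born from LF fed dams -0.842 with those CpGs and -0.212 with the quasi-binomial model, and in those born from HF fed dams 2.47 in a window of 500 bp. Those of Slc25a31 were -0.146 for post-weaning diet with LF fed dams (CpGs covered in all 40 mice), and with HF fed dams -0.0929 (all listed CpGs), -1.08 (CpGs covered in all 40 mice) and -0.170 (covariate). That of Asz1 was 0.716 for post-weaning diet with HF fed dams (quasi-binomial model). The cause of the other changes was not tested. Without the unmethylated Dazl CpGs, HF_LF was 6.21 percentage points above LF_LF (unadjusted p = 0.0474 in Student's t-test, not adjusted over other promoters). In that difference LF_LF replicate 9 counted with 1 CpG, at 64.3%, and its weight was not tested. Over all 13 CpGs, in the mice with a value at every one, the difference was 0.716 (p = 0.380), which changes both the CpGs and the mice. A minimum of 20 reads in 36 mice left no germline CpG and gave no value. No paired analysis was possible because each mouse has a number of its own in the labels and its litter is not given. At 10 to 72 reads, 1 read moves the value of a single mouse by 1.39 to 10 percentage points.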
